A study of Mus musculus with 6 samples.

Results

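The genes described are 45 components and targets of the Wnt pathway: 10 Wnt ligands, 2 genes for ligand secretion, the 10 Frizzled receptors, 5 co-receptors, 6 secreted inhibitors, 2 receptors for R-spondins, 5 feedback targets and 5 nuclear effectors. They were taken by symbol, with no threshold on measured values, though earlier results of these data were known. All 45 were found among the 54446 genes of the count tables. The data are 6 droplet-based 5' single-cell libraries, and a gene's level in a library is the sum of its UMIs (unique molecular identifiers, each standing for 1 captured transcript) over all called cells. Of these libraries, 2 came from GL261, an established mouse glioma line kept in a differentiation medium with fetal calf serum, and 4 from GL261-GSCs, derived from GL261, labelled glioblastoma stem cells and kept in a defined stem cell medium. No other treatment or genetic change was named for either group. Line derivation and medium therefore differed together, and their parts in any difference cannot be told apart. Cultured GL261 lines hold no tissue environment, the labels name both cells and nuclei without saying which were captured, and nothing says that replicates came from separate cultures, so that p-values measure the spread between these libraries, which may be technical.

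Wnt proteins are lipid-modified by Porcn and carried to the cell surface by Wls. They bind a Frizzled receptor together with Lrp5 or Lrp6, which stops the degradation of beta-catenin (Ctnnb1) and lets it act with Tcf7, Lef1, Tcf7l1 and Tcf7l2 on target genes, among them the negative regulators Axin2, Nkd1, Notum, Rnf43 and Znrf3. Ror1, Ror2 and Ryk receive Wnt signals that need no beta-catenin, and in the brain Wnt7a and Wnt7b are known as signals from neural and oligodendrocyte precursor cells to blood vessels.

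Total UMIs per library ranged from 80899005 to 121309232, and 4264 to 7275 cells per library were called. The called cells held 33320530 to 79472306 UMIs per library, with a median of 6670 to 15477.5 UMIs per cell. The shallowest library, GL261-GSCs replicate 4, had 41.2% of its UMIs in called cells, against 56.7% to 65.7% in the other 5. Pairs of libraries shared 32 to 59 called barcodes, where chance predicts 26.1 to 57.9. Of 5 markers set for glioma stem cells, Olig2 stood at 401 to 787 CPM (counts scaled to a common library size) in the 4 GL261-GSCs libraries and at 0.918 and 0.0166 CPM in GL261. Fabp7 (49.6 to 76.6 against 0.0741 and 0.0663 CPM) and Sox2 (81.7 to 141 against 66.8 and 67.5 CPM) were also higher in GL261-GSCs, Nes was lower (312 to 563 against 1183 and 1265 CPM), Prom1 was at or below 0.0607 CPM, and the summed level of the 5 overlapped between the groups (1021 to 1345 CPM against 1250 and 1333 CPM). Defining markers of endothelial and ependymal cells were near 0 in all libraries (summed levels of 0.364 to 1.63 and 0.165 to 0.430 CPM).

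The GL261-GSCs libraries held far more Wnt7b and Wnt4 and more Wls, Fzd5 and Dkk3 than the GL261 libraries, and less Wnt9a, Fzd1, Fzd2 and Ryk. The feedback targets and nuclear effectors, which read out or carry the beta-catenin signal, gave no call. Only 2 of the 5 feedback targets and 4 of the 5 nuclear effectors could be tested. Axin2, Tcf7l1 and Tcf7l2 were called in some of the other fits given below. Of the 45 genes, 26 passed the filter on low counts, and 9 of these (34.6%) had an adjusted p under 0.05 in the edgeR quasi-likelihood test with Benjamini-Hochberg adjustment over all 18439 genes tested. In the same test 29.9% of all genes were called, so the share of Wnt genes called was near the background. The 5 higher calls compare with 15.8% of all genes called higher, and the 4 lower calls with 14.1% called lower. With library size scaling in place of TMM, which moved the median over all genes to 0.18, the calls were 6 higher and 2 lower. Without GL261 replicate 1 the calls fell to 5 and without GL261 replicate 2 to 4, while those over all genes fell from 5514 to 1972 and 1817. At a change of 2-fold or more, 7 of the 26 were called, against 21.0% of all genes tested. Levels of the groups did not overlap for 15 of the 26, against 56.7% of all genes, and 7 of the 15 were higher in GL261-GSCs (28.7% of all genes) and 8 lower (28.0%). The median log2 fold change (GL261-GSCs over GL261) was -0.13 over the 26 and 0.04 over all genes tested. The filter matters for these counts: Wnt4, Wnt6, Wnt7b, Wnt9a, Fzd1 and Dkk3 passed it through 1 group alone, so that their place among the 26 depends on a high level there, and the counts over the 26 do not describe all 45 genes. The other 19 genes held at most 90 UMIs over all libraries. Levels were summed over cells, so that fewer cells with a transcript and fewer transcripts per cell cannot be told apart in them.

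**Figure D1:**
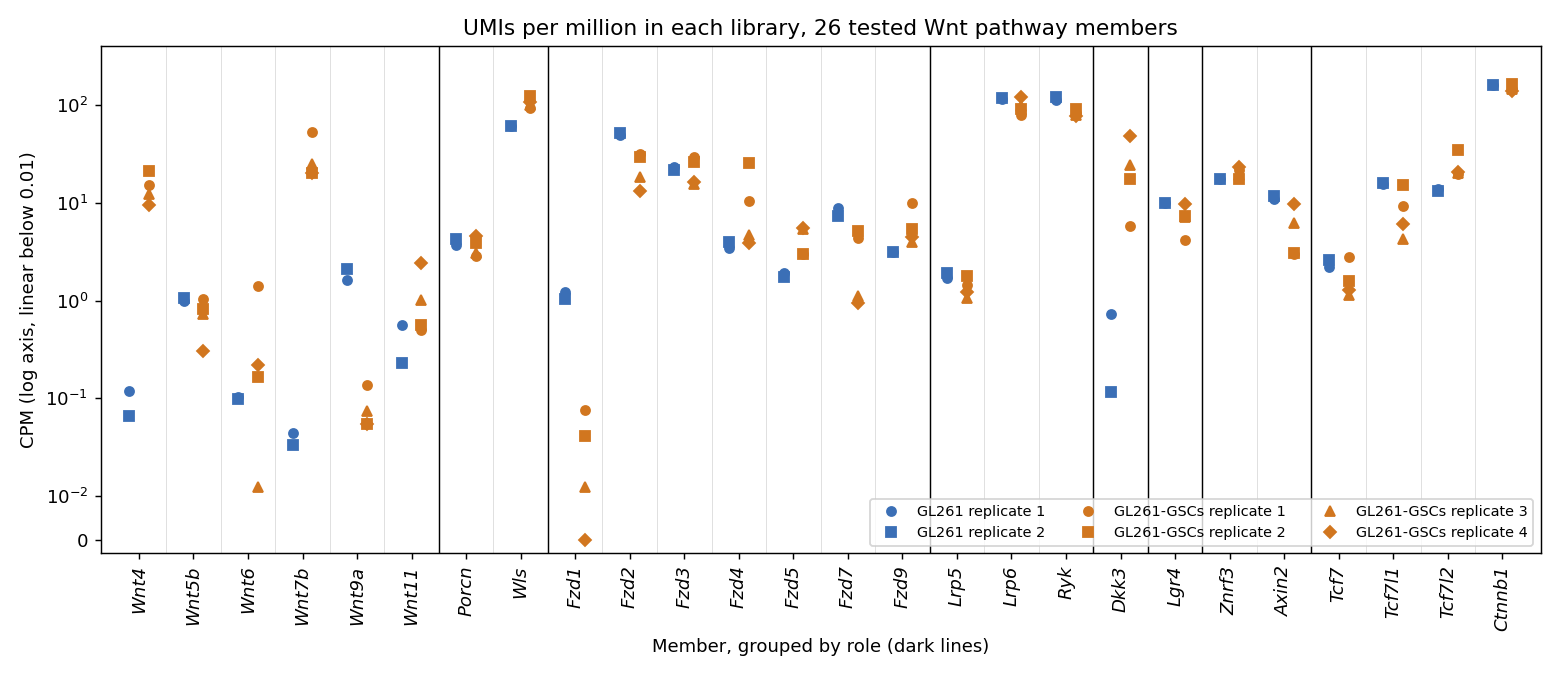
Level of the 26 tested Wnt genes, grouped by role, in CPM on a log axis that is linear below 0.01, with 1 point per library (GL261 blue, GL261-GSCs orange, a shape for each replicate). For Wnt7b, Wnt4 and Dkk3 the 4 GL261-GSCs points lie far above the GL261 points, for Wnt9a and Fzd1 far below, and for Ctnnb1 all 6 lie between 140 and 163 CPM.

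The pathway acts on its own genes through a short site: Tcf7, Lef1, Tcf7l1 and Tcf7l2 bind the letters CTTTGAT, which read as ATCAAAG from the other strand. Sequence upstream of the start sites is shown for 4 members. Wnt11 and Wnt5b hold this site, while Fzd1 and Wls hold only a shorter core of it. Of the 45 genes, 31 had an entry in the RefSeq promoter table (GRCm38.p6), and the 250 bases before each start were searched on both strands. CTTTGAT was found before a start of 2 of the 31 genes (6.45%), Wnt11 and Wnt5b, and of 3.72% of the 27025 genes in the table. It was found before none of the 6 called genes with an entry. In the sequences below, read 5' to 3' on the gene's strand, capitals mark the match. It begins 51 bases before 1 of 2 starts of Wnt11 (chr7:98835001-98835111, plus strand) and 71 bases before 1 of 3 starts of Wnt5b (chr6:119449391-119449517, minus strand).
Wnt11: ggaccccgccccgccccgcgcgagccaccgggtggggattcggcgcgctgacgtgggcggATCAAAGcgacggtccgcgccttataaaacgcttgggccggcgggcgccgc
Wnt5b: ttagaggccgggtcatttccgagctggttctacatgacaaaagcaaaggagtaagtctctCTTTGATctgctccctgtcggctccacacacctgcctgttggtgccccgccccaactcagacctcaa
The shorter core CTTTG, or CAAAG from the other strand, is part of the longer site and was found in 14 of the 31 genes (45.2%) and in 52.2% of the genes in the table, and in 2 of the 6 called genes. These were, printed after their values were seen, Fzd1 (chr5:4758219-4758466, minus strand), with matches 241 and 37 bases before its start, and Wls (chr3:159839400-159839470, plus strand), with matches 246 and 214 bases before its start.
Fzd1: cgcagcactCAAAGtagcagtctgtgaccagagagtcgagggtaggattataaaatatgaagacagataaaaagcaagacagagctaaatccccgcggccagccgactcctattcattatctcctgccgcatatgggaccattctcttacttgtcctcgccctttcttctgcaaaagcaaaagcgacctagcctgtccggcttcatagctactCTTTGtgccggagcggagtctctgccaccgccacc
Wls: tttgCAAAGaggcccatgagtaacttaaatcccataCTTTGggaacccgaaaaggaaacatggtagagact
Capitals mark the core in both. A match describes these letters in this window and no more.

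Of the 6 ligands tested, Wnt7b had the largest fold change. Wnt7b, named above as a signal to brain vessels (ENSMUSG00000022382, GRCm38 chromosome 15, 85535437 to 85582473), stood at 0.0444 and 0.0331 CPM in GL261 replicates 1 and 2 and at 53.2, 19.96, 25.1 and 20.03 CPM in GL261-GSCs replicates 1 to 4. Every GL261-GSCs library was thus over every GL261 library, and replicate 1 stood apart from the other 3. The means were 0.0388 ± 0.00799 CPM (SD, n = 2) and 29.6 ± 15.9 CPM (SD, n = 4), with a log2 fold change of 9.49 (SE 0.79, edgeR adjusted p = 0.000382). The GL261 level rests on 5 UMIs against 7693 in GL261-GSCs, a ratio of 772 with a 95% counting interval of 331 to 2379. The tested genes of chromosome 15 had a median log2 fold change of 0.37, and the part of this shift in the Wnt7b result was not tested. AU022754, a gene on the opposite strand that overlaps Wnt7b, had group means of 0 and 0.239 CPM. Whether the counting used strand is not stated by the labels or headers.

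In single cells the Wnt7b transcripts were spread over many cells of each GL261-GSCs library. With every cell thinned to 2000 UMIs, 9.73% (95% exact binomial interval 8.86 to 10.7), 3.95% (3.47 to 4.48), 4.93% (4.45 to 5.46) and 4.28% (3.71 to 4.91) of the cells of replicates 1 to 4 held a Wnt7b UMI. Without thinning these shares were 43.7%, 17.9%, 19.9% and 12.1%. In GL261 a Wnt7b UMI was seen in 0 of 4808 and 1 of 5002 thinned cells, and without thinning in 2 and 1 of these cells. All intervals given cover counting error alone. Free RNA in droplets, taken at the amount of a median barcode below the cells, would give 0.252% to 0.832% of thinned cells in the GL261-GSCs libraries and 1.19% to 4.90% without thinning. The free RNA itself held Wnt7b at 74.0, 25.5, 30.4 and 22.7 CPM in GL261-GSCs replicates 1 to 4, over its level in the called cells of each library. The part of this in the Wnt7b result was not tested. No cell held more than 13 Wnt7b UMIs.

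Wnt4, a ligand known for its part in kidney and gonad formation (ENSMUSG00000036856, chromosome 4, 137277489 to 137299726), stood at 0.119 and 0.0663 CPM in GL261 and at 15.3, 21.2, 12.4 and 9.45 CPM in GL261-GSCs. The groups did not overlap, and within GL261-GSCs the highest library, replicate 2, was another one than for Wnt7b. The means of 0.0924 ± 0.0369 (SD, n = 2) and 14.6 ± 5.04 CPM (SD, n = 4) gave a log2 fold change of 7.26 (SE 0.54, edgeR adjusted p = 0.000278). The UMIs numbered 12 and 3882, a ratio of 162 (95% counting interval 92.9 to 315). In thinned cells, 3.05%, 4.11%, 1.90% and 1.95% held a Wnt4 UMI in GL261-GSCs replicates 1 to 4 and 0.0832% and 0.0200% in GL261. Free RNA would give 0.0625% to 0.0931% of thinned cells in the GL261-GSCs libraries. Thinned cells with both ligands numbered 13, 9, 10 and 4 in the 4 libraries, where independent detection would give 12.7, 9.53, 6.81 and 3.76 cells. A Wnt7b UMI was thus seen about as often in cells with Wnt4 as in cells without it in replicates 1, 2 and 4 (10.0% against 9.72%, 3.73% against 3.96% and 4.55% against 4.27%), and in 7.25% against 4.89% in replicate 3. These counts are small and carry no test.

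Wnt9a, a ligand of joint and limb development (ENSMUSG00000000126, chromosome 11, 59306928 to 59333552), went the other way. It stood at 1.61 and 2.09 CPM in GL261 and at 0.136, 0.0552, 0.0750 and 0.0549 CPM in GL261-GSCs, so that the groups lay far apart. The means were 1.85 ± 0.334 (SD, n = 2) and 0.0804 ± 0.0385 CPM (SD, n = 4), with a log2 fold change of -4.47 (SE 0.40, edgeR adjusted p = 0.000495). With 235 UMIs in GL261 and 21 in GL261-GSCs, the level was 22.3-fold higher in GL261 (95% counting interval 14.3 to 36.7).

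The other 7 ligands gave no call. Wnt11, which acts mostly without beta-catenin, stood at 0.563 and 0.232 CPM in GL261 and at 0.500, 0.566, 1.01 and 2.42 CPM in GL261-GSCs, with overlap (log2 fold change 1.47, edgeR adjusted p = 0.194). Its log2 fold change was 0.82 without GL261-GSCs replicate 4 and 2.24 without GL261 replicate 1. Wnt6 stood at 1.41 CPM in GL261-GSCs replicate 1 and at 0.0125 to 0.220 CPM in the other 5 libraries (log2 fold change 2.14, or 0.26 without that replicate, adjusted p = 0.322 with it). Wnt5b had group means of 1.03 and 0.725 CPM (log2 fold change -0.48, adjusted p = 0.448). Wnt2b, Wnt5a, Wnt7a and Wnt10b were too low to test. Wnt7a, the close relative of Wnt7b, had 11 GL261 UMIs against 1 from GL261-GSCs, a ratio of 21.9 in favour of GL261 with a counting interval of 3.19 to 943. That 1 UMI lay in replicate 2, and without this library no ratio can be given. The 10 ligands summed to 3.75 and 3.88 CPM in GL261 and to 71.8, 43.0, 39.4 and 32.6 CPM in GL261-GSCs, most of it Wnt7b and Wnt4. Wnt16, a ligand outside the 45 and named after its values were seen, had means of 0.0388 and 2.68 CPM (5 and 694 UMIs, ratio 69.7 with a counting interval of 29.7 to 215, edgeR adjusted p = 0.00132).

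Wls, the carrier that every lipid-modified Wnt needs to leave the cell (ENSMUSG00000028173, chromosome 3, 159839672 to 159938664), stood at 60.7 and 61.4 CPM in GL261 and at 92.4, 122, 101 and 107 CPM in GL261-GSCs. All 4 GL261-GSCs libraries were over both GL261 libraries, with means of 61.1 ± 0.534 (SD, n = 2) and 105 ± 12.4 CPM (SD, n = 4) and a log2 fold change of 0.79 (SE 0.15, edgeR adjusted p = 0.00846). The call was lost without GL261 replicate 1 (adjusted p = 0.0933) or 2 (adjusted p = 0.0939). In GL261-GSCs replicate 1, the lowest of the 4 for Wls, genes of chromosome 3 stood at a median log2 difference of -0.39 from the mean of the other 3, and the part of this was not tested. In thinned cells a Wls UMI was held by 10.05% and 11.1% of the GL261 cells and by 18.03%, 23.9%, 20.5% and 23.1% of the GL261-GSCs cells. Free RNA would give 0.473% and 0.371% of thinned cells in GL261 and 0.736%, 0.890%, 1.56% and 2.40% in GL261-GSCs, so that it too was higher in GL261-GSCs, and its part in the difference was not tested. With cells at full depth, GL261 replicates 1 and 2 gave 51.4% and 48.8%, and the GL261-GSCs libraries 71.2%, 72.8%, 61.4% and 51.4%, so that GL261-GSCs replicate 4, the shallowest library, was level with GL261 replicate 1. Porcn, the enzyme that attaches the lipid, had overlapping levels, with means of 4.004 ± 0.405 (SD, n = 2) and 3.60 ± 0.812 CPM (SD, n = 4) and an adjusted p of 0.689 (log2 fold change -0.16, and 0.00 with library size scaling).

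The Frizzled receptors moved in different directions. Fzd1, Fzd2 and Fzd7 are close relatives. Fzd1 and Fzd2 fell, Fzd5 rose, Fzd3, Fzd4, Fzd7 and Fzd9 gave no call, and Fzd6, Fzd8 and Fzd10 were too low to test. Fzd1 (ENSMUSG00000044674, chromosome 5, 4753839 to 4758035) stood at 1.21 and 1.03 CPM in GL261 and at 0.0758, 0.0414, 0.0125 and 0 CPM in GL261-GSCs. Fzd1 was thus low in GL261 and near 0 in GL261-GSCs. The means were 1.12 ± 0.133 (SD, n = 2) and 0.0324 ± 0.0337 CPM (SD, n = 4), with a log2 fold change of -4.93 (SE 0.64, edgeR adjusted p = 0.00211). In GL261 a Fzd1 UMI was seen in 9 of 4808 and 11 of 5002 thinned cells. In GL261-GSCs it was seen in 1 thinned cell of replicate 1 and in 0 of replicates 2 to 4. The UMIs numbered 144 and 9, so that the level was 31.9-fold higher in GL261 (95% counting interval 16.3 to 71.1). Without GL261-GSCs replicate 1 the ratio was 53.2.

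Fzd2 (ENSMUSG00000050288, chromosome 11, 102604396 to 102608058) stood at 48.9 and 51.6 CPM in GL261 and at 31.5, 29.1, 18.3 and 13.3 CPM in GL261-GSCs. Every GL261-GSCs library was lower than both GL261 libraries, and replicates 3 and 4 were lower than 1 and 2. The means of 50.3 ± 1.88 (SD, n = 2) and 23.0 ± 8.65 CPM (SD, n = 4) gave a log2 fold change of -1.12 (SE 0.33, edgeR adjusted p = 0.0431). This call was lost with library size scaling (adjusted p = 0.0546), with the GL261-GSCs libraries summed in pairs (0.0529) and without GL261 replicate 1 (0.166) or 2 (0.204) or GL261-GSCs replicate 2 (0.0509) or 3 (0.0967). The tested genes of chromosome 11, which also carries Wnt9a, Axin2, Znrf3 and Tcf7, had a median log2 fold change of -0.28, and the part of this shift in these results was not tested. Over chromosomes 1 to 19 and X these medians ran from -0.48 (chromosome 18) to 0.40 (chromosome 13, which carries Nkd2), with -0.24 on chromosome 7, which carries Dkk3, Fzd4 and Wnt11.

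Fzd5, a receptor known from eye development (ENSMUSG00000045005, chromosome 1, 64730558 to 64737751), stood at 1.91 and 1.76 CPM in GL261 and at 2.99, 2.98, 5.39 and 5.58 CPM in GL261-GSCs. The groups did not overlap, and here replicates 3 and 4 were the higher ones. The means were 1.83 ± 0.110 (SD, n = 2) and 4.23 ± 1.44 CPM (SD, n = 4), with a log2 fold change of 1.20 (SE 0.37, edgeR adjusted p = 0.0481). The call was held in 6 of 15 alternatives and lost, among others, with limma-voom (adjusted p = 0.0618), with all barcodes (0.0594) and without any of GL261 replicates 1 (0.203) and 2 (0.252) and GL261-GSCs replicates 3 (0.102) and 4 (0.0706).

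Fzd4, the receptor of Norrin as well as of Wnts, stood at 3.48 and 3.93 CPM in GL261 and at 10.5, 25.6, 4.70 and 3.90 CPM in GL261-GSCs. Replicates 1 and 2 were high, while replicate 4 lay within the range of GL261 (log2 fold change 1.60, SE 0.80, edgeR adjusted p = 0.175). Without replicate 2 the log2 fold change was 0.80. Fzd7 showed the same split of the GL261-GSCs libraries at a lower level than in GL261, with 8.75 and 7.29 CPM in GL261 and 4.38, 5.12, 1.13 and 0.934 CPM in GL261-GSCs (log2 fold change -1.47, adjusted p = 0.151). Fzd9 did not overlap between the groups, at 3.13 and 3.11 against 9.96, 5.38, 3.98 and 4.48 CPM, and was not called either (log2 fold change 0.93, adjusted p = 0.132). Fzd9 and Fzd1 were highest among the GL261-GSCs libraries in replicate 1, where genes of chromosome 5, which carries both, stood at a median log2 difference of 0.46 from the mean of the other 3. The median log2 fold change on chromosome 5 was 0.27, and the part of either shift was not tested. Fzd3 had means of 22.6 ± 1.15 (SD, n = 2) and 21.7 ± 6.86 CPM (SD, n = 4) with an adjusted p of 0.904. Its log2 fold change of -0.05 became positive in 4 alternatives, at up to 0.28. Fzd6 had 1 and 5 UMIs in the 2 groups. Fzd8 and Fzd10 had none in called cells or in any barcode, and 0 UMIs over the called cells of all libraries allows up to 0.00784 CPM.

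**Figure D2:**
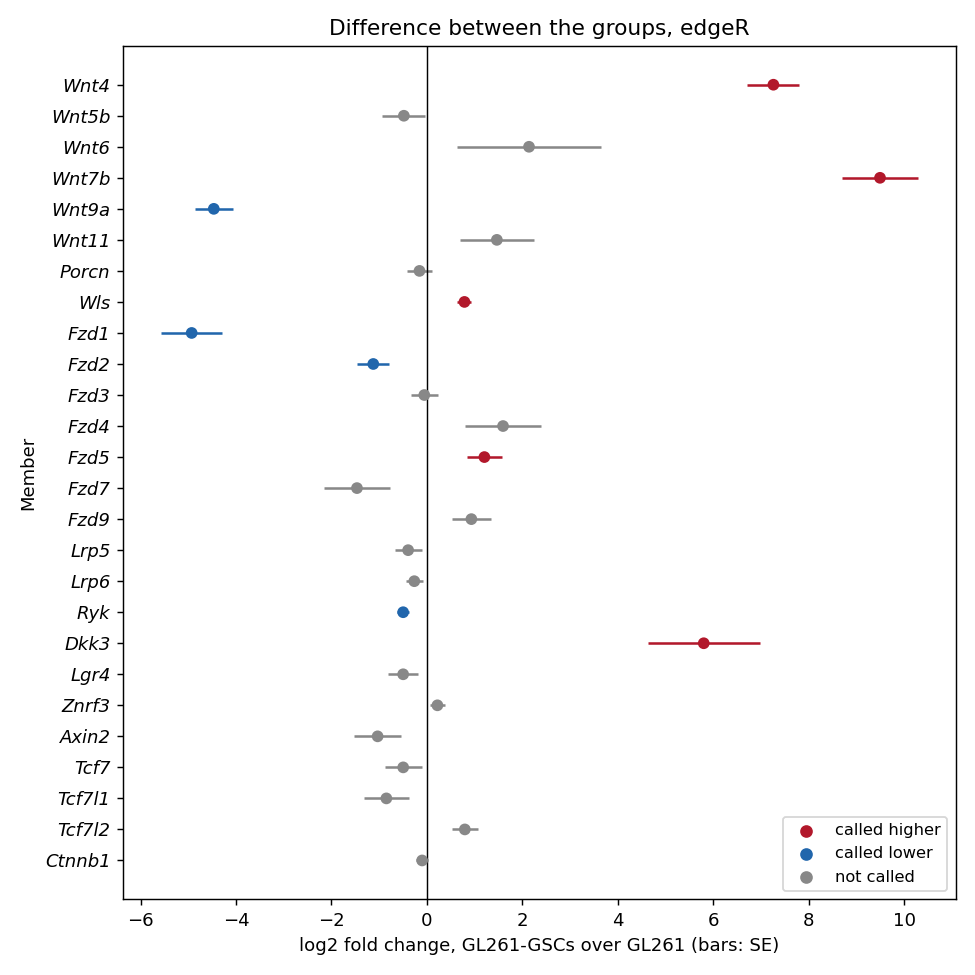
Log2 fold change (GL261-GSCs over GL261) of the 26 Wnt genes tested, ordered by role, with bars for the SE and colour for the call (5 higher in red, 4 lower in blue, the others grey). The called genes reach from Fzd1 at -4.93 to Wnt7b at 9.49, and both directions occur among the ligands and among the Frizzled receptors.

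Of the co-receptors, Ryk was called. Ryk, a receptor with an inactive kinase domain that guides axons (ENSMUSG00000032547, chromosome 9, 102834917 to 102908305), stood at 113 and 119 CPM in GL261 and at 82.9, 91.5, 78.3 and 76.1 CPM in GL261-GSCs. The groups did not overlap, with means of 116 ± 4.50 (SD, n = 2) and 82.2 ± 6.83 CPM (SD, n = 4) and a log2 fold change of -0.50 (SE 0.12, edgeR adjusted p = 0.0232). The call was lost with library size scaling (adjusted p = 0.0645), with no filter (0.0542), with the GL261-GSCs libraries summed in pairs (0.0511) and without GL261 replicate 1 (0.131) or 2 (0.197) or GL261-GSCs replicate 3 (0.0637). Lrp6, the main partner of the Frizzled receptors in beta-catenin signalling, stood at 115 and 117 CPM in GL261 and at 78.9, 89.7, 97.2 and 121 CPM in GL261-GSCs. Replicate 4 was over both GL261 libraries and the other 3 below them (log2 fold change -0.26, adjusted p = 0.306). Lrp5 had means of 1.81 ± 0.132 (SD, n = 2) and 1.38 ± 0.314 CPM (SD, n = 4) (adjusted p = 0.331). Ror1, a receptor tyrosine kinase for Wnt5a, was too low to test, with 21 UMIs in GL261 and 3 in GL261-GSCs, a ratio of 14.0 in favour of GL261 (counting interval 4.16 to 73.0). Without GL261-GSCs replicate 1, which held 2 of the 3, the ratio was 31.0. Ror2 had 0 UMIs in every library.

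Most secreted inhibitors were seen with few or no UMIs, and Dkk3 alone passed the filter. Sfrp1 and Sfrp2, which bind Wnts outside the cell, had 0 UMIs in the called cells of all libraries, and of the Lrp inhibitors Dkk1 had a single UMI, in GL261-GSCs, and Dkk2 had 3 in each group. Wif1, another Wnt-binding inhibitor, had 14 UMIs in the GL261 cells and 76 in GL261-GSCs, 64 of them in replicate 2. Dkk3, the Dkk family member whose link to Wnt signalling is the least clear (ENSMUSG00000030772, chromosome 7, 112116017 to 112159057), stood at 0.726 and 0.116 CPM in GL261 and at 5.75, 17.5, 24.4 and 48.2 CPM in GL261-GSCs. The groups did not overlap, but both varied: the 2 GL261 libraries held 49 and 7 UMIs, and the highest GL261-GSCs library was 8.38 times the lowest. The means were 0.421 ± 0.431 (SD, n = 2) and 23.9 ± 17.9 CPM (SD, n = 4), with a log2 fold change of 5.80 (SE 1.17, edgeR adjusted p = 0.0114). In UMIs the level was 47.9-fold higher in GL261-GSCs (95% counting interval 36.9 to 63.5), 181-fold without GL261 replicate 1 and 28.9-fold without GL261 replicate 2, where the call was lost (adjusted p = 0.0828).

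Olig2, a gene high in GL261-GSCs, was like Dkk3 higher in GL261 replicate 1 than in replicate 2 (0.918 against 0.0166 CPM). Within GL261-GSCs it did not follow the order of Dkk3, at 401, 413, 787 and 628 CPM in replicates 1 to 4. Of 5 neuron markers, Syt1 stood at 1.15, 12.4, 51.6 and 78.2 CPM in GL261-GSCs replicates 1 to 4, the order of Dkk3. The other 4 markers were under 1 CPM in every library and 2 of them at 0, and the summed level of the 5 was 0.0148 to 0.0331 CPM in GL261 and 1.17 to 78.2 CPM in GL261-GSCs. Median UMIs per cell fell along the same order, at 15374.5, 11889.5, 10638 and 6670 in GL261-GSCs replicates 1 to 4. Median mitochondrial shares rose along it, at 1.04%, 1.11%, 1.26% and 1.35%. Lrp6, Axin2 and Wnt11 rose in this order too, so that it is not particular to Dkk3 and Syt1. The parts of Olig2, Syt1, depth and mitochondrial share in the Dkk3 difference were not tested. The thinned share of cells with a Dkk3 UMI was 1.29%, 3.66%, 6.06% and 11.3% in GL261-GSCs replicates 1 to 4, where free RNA would give 0.0519%, 0.129%, 0.421% and 1.27%. The free RNA held Dkk3 at 31.6 and 53.1 CPM in GL261-GSCs replicates 3 and 4, over its level in called cells there, and the part of this was not tested. In GL261 a Dkk3 UMI was seen in 8 of 4808 and 0 of 5002 thinned cells, and without thinning in 47 and 7 of these cells.

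**Figure D3:**
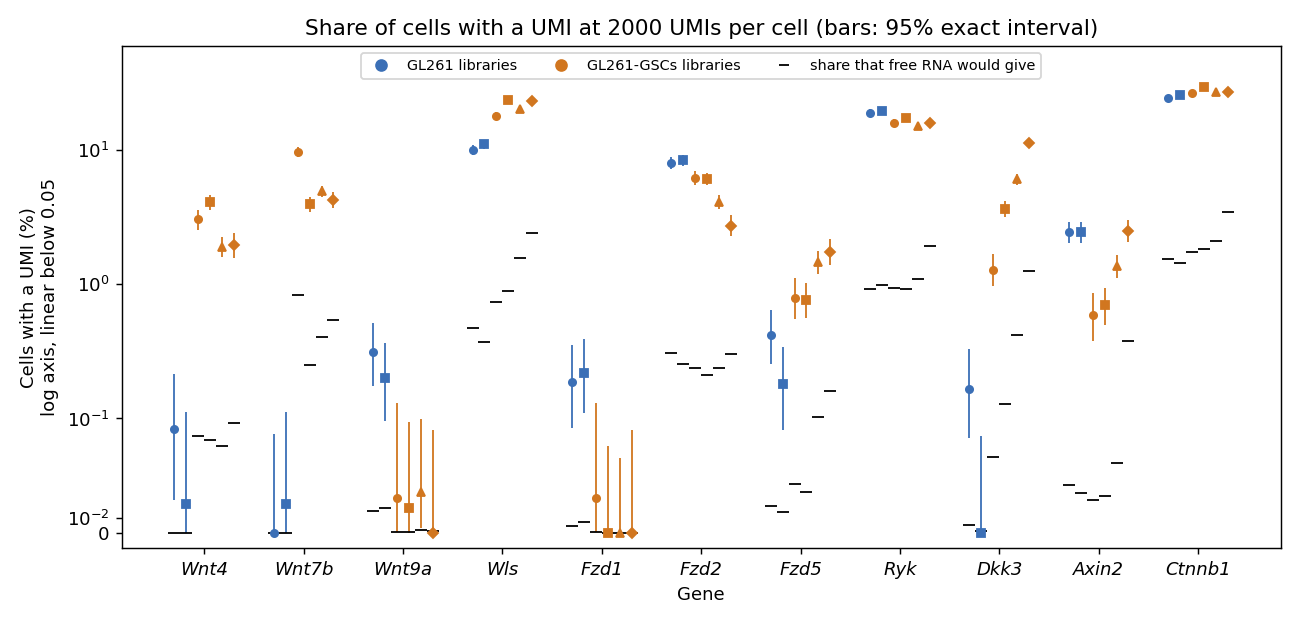
Percentage of cells in which a gene was seen after thinning each cell to 2000 UMIs, on a log axis that is linear below 0.05, with 1 point per library (GL261 blue, GL261-GSCs orange), bars for 95% exact binomial intervals and dashes for the share that free RNA would give. For Wnt7b the 4 GL261-GSCs libraries lie between 3.95% and 9.73% and for Dkk3 between 1.29% and 11.3%, with both GL261 libraries at or near 0. For Ctnnb1 all 6 libraries lie between 24.5% and 29.5%, with the 4 GL261-GSCs libraries over both GL261 libraries.

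Neither receptor for R-spondins, the proteins that strengthen Wnt signals, was called. Lgr4 stood at 9.98 and 9.99 CPM in GL261 and at 4.15, 7.23, 7.22 and 9.72 CPM in GL261-GSCs. All 4 were below GL261, replicate 4 by little (log2 fold change -0.50, edgeR adjusted p = 0.276). Lgr5, a marker of intestinal stem cells, had 11 and 14 UMIs and was not tested. Of the R-spondins, which are outside the 45 genes and are named after their values were seen, Rspo1 stood at 3.08 CPM in GL261-GSCs replicate 1 and at or below 0.248 CPM in the other 5 libraries, and Rspo3 at 1.48 and 0.797 CPM in GL261-GSCs replicates 3 and 4 and at or below 0.0303 CPM elsewhere. Neither was called.

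The feedback targets, often used as a reading of beta-catenin activity, gave no call, with 2 of the 5 tested. Axin2 stood at 10.8 and 11.6 CPM in GL261 and at 2.96, 3.06, 6.20 and 9.72 CPM in GL261-GSCs. In CPM every GL261-GSCs library was below both GL261 libraries, and the 4 spread over 3.29-fold. The means were 11.2 ± 0.552 (SD, n = 2) and 5.49 ± 3.20 CPM (SD, n = 4), with a log2 fold change of -1.03 (SE 0.49, edgeR adjusted p = 0.154). Without GL261-GSCs replicate 4 the change was called (log2 fold change -1.43, adjusted p = 0.0341). In that library the free RNA held Axin2 at 15.8 CPM, over its level in called cells, against 1.98 to 3.59 CPM in the free RNA of the other 5, and its part in the result was not tested. Znrf3, which removes Frizzled receptors from the surface, stood at 17.6 and 17.4 CPM in GL261 and at 21.5, 17.3, 19.4 and 23.3 CPM in GL261-GSCs, with overlap (adjusted p = 0.340). Rnf43, with the same function, had 4 and 13 UMIs and Notum, an enzyme that strips the lipid from Wnts, 21 and 28. Nkd1 had 0 UMIs in called cells.

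Among the nuclear effectors, Ctnnb1, beta-catenin itself, overlapped between the groups, at 158 and 160 CPM in GL261 and 144, 163, 146 and 140 CPM in GL261-GSCs. Its log2 fold change was -0.10 (SE 0.12, edgeR adjusted p = 0.558), and 0.05 with library size scaling. Tcf7l2, the partner of beta-catenin in oligodendrocyte differentiation, stood at 13.9 and 13.2 CPM in GL261 and at 19.5, 34.2, 19.9 and 20.5 CPM in GL261-GSCs. The groups did not overlap, replicate 2 stood apart, and the change missed the threshold (log2 fold change 0.79, SE 0.27, adjusted p = 0.0670). It was called in 6 of 15 alternatives, among them DESeq2 (adjusted p = 0.0229), library size scaling (0.0424) and without GL261-GSCs replicate 2 (0.0333). Tcf7l1, mostly a repressor of Wnt targets, stood at 15.6 and 15.8 CPM in GL261 and at 9.23, 15.3, 4.28 and 5.99 CPM in GL261-GSCs (log2 fold change -0.85, SE 0.47, adjusted p = 0.210). Its replicate 2 was close to GL261, and without it the change was called (adjusted p = 0.0423). Tcf7 had means of 2.39 ± 0.245 (SD, n = 2) and 1.69 ± 0.735 CPM (SD, n = 4) (adjusted p = 0.370). For Lef1 a single UMI was seen, in GL261.

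The Wnt genes also differed among the 4 GL261-GSCs libraries. For 8 of the 26 tested genes the highest GL261-GSCs library was over 3 times the lowest: Wnt5b, Wnt6, Wnt11, Fzd4, Fzd7, Dkk3, Axin2 and Tcf7l1. Fzd1, at 0 CPM in replicate 4 and 0.0758 CPM in replicate 1, has no such ratio and is left out of this count. Among all genes tested this held for 16.2%, where genes at 0 in a GL261-GSCs library were likewise not counted but stayed in the total. Fzd4, Fzd7, Wnt5b and Tcf7l1 had their 2 highest levels in replicates 1 and 2, and Wnt11, Dkk3 and Axin2 in replicates 3 and 4. Wnt6 was highest in replicate 1.

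A list of 83 other symbols of the pathway, of which 81 were found, gave 25 calls among the 57 genes tested. This was 43.9%, against 29.9% of all genes. Of the calls 12 were higher and 13 lower (15 and 10 with library size scaling), and the median log2 fold change over the 57 was 0.16. The list was chosen with earlier results of these data known. Some of the 57, among them Wnt16 and Cer1, passed the filter through GL261-GSCs alone. The share called is therefore not independent of the data. Without GL261 replicate 1 or 2 the calls numbered 14 and 12. Higher in GL261-GSCs were Ctnnbip1, which blocks the binding of beta-catenin to Tcf proteins, the co-repressors Tle2 and Tle1, and Myc, a target shared with many pathways. Ctnnbip1 rose from 11.2 ± 1.30 (SD, n = 2) to 38.0 ± 3.10 CPM (SD, n = 4; log2 fold change 1.76, SE 0.15, edgeR adjusted p = 0.000478). Tle2 rose from 2.37 ± 0.310 to 24.9 ± 7.42 CPM (adjusted p = 0.000890), Tle1 from 19.2 ± 0.809 to 46.1 ± 3.60 CPM (adjusted p = 0.000944) and Myc from 162 ± 20.7 to 474 ± 29.8 CPM (adjusted p = 0.000627). Myc lies on chromosome 15, whose median of 0.37 is given above. Of the other co-repressors, also named after their values were seen, Tle4 was called higher and Tle3 lower.

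Lower in GL261-GSCs were Daam1, a formin of the branch without beta-catenin, Csnk1a1, the kinase that primes beta-catenin for degradation, and the nuclear cofactors Bcl9l and Ctbp2. Daam1 fell from 117 ± 0.975 (SD, n = 2) to 42.3 ± 1.29 CPM (SD, n = 4; log2 fold change -1.46, SE 0.10, edgeR adjusted p = 0.000213). Csnk1a1 fell from 372 ± 2.91 to 159 ± 20.1 CPM (adjusted p = 0.00157). It lies on chromosome 18, whose tested genes had a median log2 fold change of -0.48, and the part of that shift was not tested. Bcl9l fell from 21.7 ± 2.18 to 10.7 ± 0.655 CPM (adjusted p = 0.00297, and 0.0588 without GL261 replicate 2) and Ctbp2 from 32.0 ± 1.65 to 21.2 ± 1.71 CPM (adjusted p = 0.0163, lost without GL261 replicate 1 or 2 at 0.101 and 0.166).

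Widely used Wnt targets of this list are given whatever their result. Ccnd1, cyclin D1, was not called (log2 fold change 0.62, SE 0.25, edgeR adjusted p = 0.102, and 0.0426 with library size scaling). Nkd2, a feedback inhibitor related to Nkd1, stood at 19.5 and 17.2 CPM in GL261 and at 9.55, 11.8, 4.08 and 1.98 CPM in GL261-GSCs (log2 fold change -1.42, SE 0.62, adjusted p = 0.128). The targets Sp5 and Apcdd1 had 1 and 4 UMIs in GL261 and none in GL261-GSCs. Named after their values were seen, the co-receptor Ptk7 and the receptor gene Tnfrsf19, a Wnt target, rose, with log2 fold changes of 3.10 (SE 0.35, adjusted p = 0.00121) and 2.73 (SE 0.35, adjusted p = 0.00203). Adgra2, which with Reck forms the receptor complex for Wnt7a and Wnt7b, fell from 2.12 ± 0.0872 (SD, n = 2) to 0.346 ± 0.109 CPM (SD, n = 4; log2 fold change -2.61, SE 0.33, adjusted p = 0.00180). Reck itself was not called (log2 fold change 1.69, adjusted p = 0.0805).

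**Figure D4:**
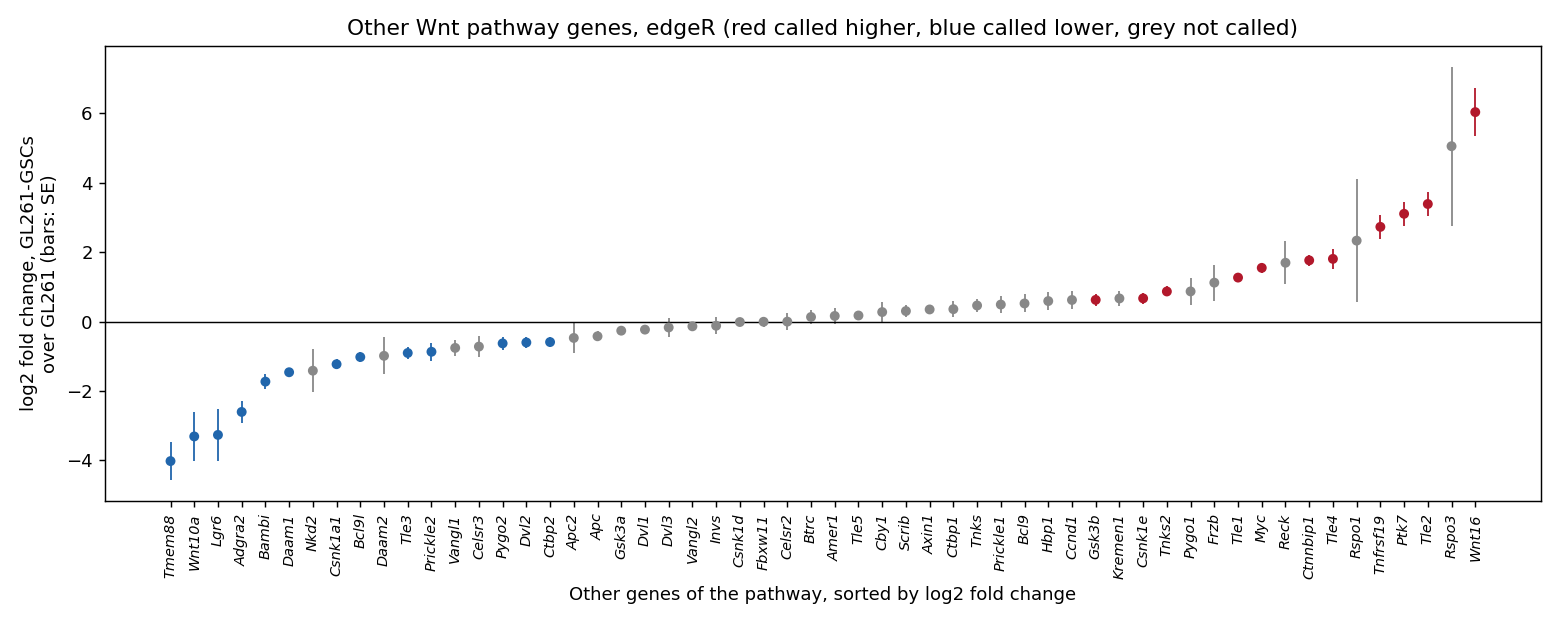
Log2 fold change (GL261-GSCs over GL261) of the other pathway genes tested, sorted by size, with bars for the SE and colour for the call (red higher, blue lower, grey not called); Cer1, with 0 UMIs in GL261, is left out. Tnfrsf19 at 2.73, Ptk7 at 3.10 and Tle2 at 3.39 are among the highest, and Adgra2 at -2.61 among the lowest.

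Marker lists that moved with the groups are given here with their values. Col1a1, a collagen gene of fibroblasts, made up most of a list of 5 pericyte and fibroblast markers, which summed to 252 and 287 CPM in GL261 and to 11.1 to 26.8 CPM in GL261-GSCs, with 3 of the 5 under 1 CPM in every library. Csf1r made up most of 5 microglia and macrophage markers, which summed to 12.9 and 13.0 CPM in GL261 and 0.192 to 0.349 CPM in GL261-GSCs, with the other 4 under 1 CPM. Of 4 astrocyte markers, which summed to 7.85 and 8.50 CPM in GL261 with 1 of them at 0 everywhere, Slc1a3 stood at 61.2 to 85.7 CPM in GL261-GSCs and at 0.163 and 0 CPM in GL261. Aldh1l1 and Gfap went the other way, at 7.11 and 6.49 and at 1.23 and 1.36 CPM in GL261 and at or below 0.0549 CPM in GL261-GSCs. The part of these in the differences of the Wnt genes was not tested.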

How the data were processed

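The authors deposited raw UMI counts per gene and barcode, unfiltered, for 6 libraries. Cell Ranger 4 wrote them, per the file headers, and the submitters' processing notes name the build mm10. Aligner, strand setting and annotation release: not given in the sources used here. Gene identifiers were matched to GENCODE M21 (GRCm38) without version (54409 of 54446). Groups and replicate numbers came from sample titles. The 45 members and the gene lists were chosen with earlier results of these data known.

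A barcode was called a cell with a UMI count of 10% or more of the 99th percentile among the 3000 largest barcodes, at least 500 genes and under 10% mitochondrial UMIs. Doublets were not treated. Counts summed over cells per library were tested with edgeR 4.0.16 (R 4.3.3; quasi-likelihood, TMM, filterByExpr with at least 0.147 CPM in 2 libraries and 15 UMIs in all), 2-sided, with Benjamini-Hochberg adjustment over 18439 genes and no block. CPM used TMM-scaled library sizes. The SE is the size of the log2 fold change over the root of its F statistic, and is too small where a group has few UMIs. Cells were thinned to 2000 UMIs for shares, with exact binomial intervals at 95% (scipy 1.17.1). Unlike CPM, the shares carry no TMM scaling. The TMM factors were 0.950 and 0.918 in GL261 and 1.006 to 1.093 in GL261-GSCs, so that shares stand higher in GL261-GSCs relative to GL261 than TMM scaling would put them. Free RNA was read from barcodes with 100 to under 1000 UMIs. A count of 0 was given the limit that 3 UMIs set. Counting intervals condition on the group totals.

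The naming rule gives CPM in every library and full statistics for members called at 2-fold or more, and the other members by means, ranges or counts. Beyond it, CPM in every library is also given for Wnt11, Wls, Fzd4, Fzd7, Fzd9, Ryk, Lrp6, Lgr4, Axin2, Znrf3, Ctnnb1, Tcf7l1 and Tcf7l2, and for Nkd2, chosen after their values were seen. Of the other pathway genes it names the 4 called genes with the smallest p in each direction at a mean of at least 20 CPM in 1 group, and Myc, Ccnd1, Sp5, Nkd2 and Apcdd1 whatever their values. Tiki1 and Tiki2 were not matched, and Tle5 was found under an older symbol. On simulated counts for this comparison (18439 genes, 200 changed by 2 on the log2 scale) edgeR recovered 167, each in its true direction, and 10 of its 177 calls were false. Every simulated gene had the same spread between libraries (dispersion 0.0969), and far fewer genes were changed than were called in the data. These rates need not hold for the calls given here, least of all for genes with a wider spread. Alternatives were library size scaling, DESeq2 1.42.0 and its size factors, limma-voom (limma 3.58.1), no filter, barcodes of at least 1000 UMIs, all barcodes, a replicate block and leaving out each library. Summing the GL261-GSCs libraries in pairs (replicate 1 with 2, 3 with 4) was chosen after seeing the data.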

Additional observations from a re-analysis of the deposited data

Results flagged for a closer look

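For 5 genes 1 GL261-GSCs library stood far from the other 3, its gap to the nearest of them exceeding the 95% limit of Dixon's test. Wnt7b stood at 53.2 CPM in replicate 1 and at 19.96 to 25.1 CPM in the other 3. Wnt6 stood at 1.41 CPM in replicate 1 and at 0.0125 to 0.220 CPM in the others, and Wif1 at 0.883 CPM in replicate 2 and at 0.0455 to 0.110 CPM in the others. Tcf7l2 stood at 34.2 CPM in replicate 2 and at 19.5 to 20.5 CPM in the others. Tle1, from the list of other pathway genes, stood at 51.4 CPM in replicate 1 and at 43.7 to 44.8 CPM in the others. Levels of 44 genes were checked, and for genes chosen without regard to their values chance alone marks about 1 in 20 groups. Some of the 44 were named after their values were seen, so that this rate does not describe them. Wif1, too low to test, was checked only for its number of UMIs in GL261-GSCs, most of them (64) in replicate 2. Its mark therefore follows in part from the way it was chosen. The GL261 group, with 2 libraries, could not be checked in this way.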

How the results depend on the processing

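Of 389 values of the tested members under the alternatives, 346 kept the direction and the side of the threshold, 24 lost a call, 13 gained one and 6 changed sign, all 6 of genes never called: with library size scaling Porcn had a log2 fold change of 0.0031, Fzd3 0.087 and Ctnnb1 0.048, and Fzd3 had 0.28 with the replicate block and -0.22 to 0.083 when 1 library was left out. Wnt4, Wnt7b, Wnt9a and Fzd1 were called in all 15 alternatives. With library size scaling the median over all genes was 0.18 in place of 0.04, with 3491 genes called higher and 2034 lower against 2920 and 2594. Leaving out 1 library gave 4 to 10 members called, 12 to 29 other pathway genes and 1817 to 6193 of all genes, against 9, 25 and 5514. The lowest counts came without GL261 replicate 2, and without GL261 replicate 1 they were 5, 14 and 1972. The fit then takes the spread of the lone GL261 library from that among the GL261-GSCs libraries. Without GL261-GSCs replicate 3, 6 members were called. No pairing by replicate number was seen for replicates 1 and 2. Deviations from the group means correlated at -0.03 and 0.04 between libraries of the same number, and at -0.04 and 0.03 between crossed ones. The deviations of 2 GL261 libraries mirror each other, so that these values are not separate checks. Replicates 3 and 4 could not be checked. With the replicate block, 14 members, 36 other pathway genes and 6512 of all genes were called. Replicates 3 and 4 have no GL261 library of their number, so this fit takes the group difference from replicates 1 and 2 alone. Calls that it adds or removes thus leave GL261-GSCs replicates 3 and 4 out. The block adds Axin2 (log2 fold change -1.89, edgeR adjusted p = 0.00196), Fzd4 (0.00629), Fzd9 (0.0262), Lrp6 (0.0326), Lgr4 (0.0489) and Tcf7l2 (0.0343) and removes Fzd5 (0.0751). Among the other pathway genes named it adds Ccnd1 (log2 fold change 0.86, 0.0131) and Nkd2 (-0.79, 0.0289). Low genes rested on few UMIs at these depths: Wnt9a had 2 UMIs and Wnt6 8 in GL261-GSCs replicate 4, the shallowest library, and Wnt6 had 1 in replicate 3, the library with the most UMIs in called cells.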

Other observations

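Several ligands and receptors outside the 45 genes, named after their values were seen, differed between the groups. Wnt10a stood at 1.90 and 1.47 CPM in GL261 and at 0.394, 0.152, 0.0750 and 0.0275 CPM in GL261-GSCs (log2 fold change -3.31, SE 0.72, edgeR adjusted p = 0.0148). Lgr6, the third of the R-spondin receptors, stood at 3.18 and 3.35 CPM in GL261 and at 0.819, 0.207, 0.0750 and 0.247 CPM in GL261-GSCs (log2 fold change -3.27, SE 0.75, adjusted p = 0.0183). Both calls were lost without GL261 replicate 1 or 2, and without GL261-GSCs replicate 1 the log2 fold changes were -4.16 for Wnt10a and -4.25 for Lgr6. Cer1, a secreted inhibitor of Nodal and BMP signals, was seen with 67 UMIs in GL261-GSCs and 0 in the other group. Its level was at least 11.2-fold higher in GL261-GSCs when GL261 is set to 3 UMIs over the group. Bambi, a pseudoreceptor of TGF-beta signalling and a Wnt target, fell from 12.03 ± 2.37 (SD, n = 2) to 3.62 ± 0.449 CPM (SD, n = 4; log2 fold change -1.73, SE 0.21, adjusted p = 0.00160). It lies on chromosome 18, where the median log2 fold change was -0.48. Of 76 Wif1 UMIs in GL261-GSCs, 64 lay in replicate 2, and 1 cell of that library held 15.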
